A study of Mus musculus with 12 samples.

Results

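The Sprouty genes (Spry1 to Spry4) and the Spred genes (Spred1 to Spred3) encode inhibitors of receptor tyrosine kinase signalling. The 7 members were taken by name, and the family was selected on the CKO to WT differences of these same tables, so those differences are given as a description. Rows were found for 6 of the 7 among the 22801 genes measured in MII eggs. Spry3 had no row at either stage and is not analysed here. Among the 3475 genes of the GV table only Spry1 had a row. That table lists genes which the authors had selected for an unadjusted p-value under 0.05 and over 2-fold, so the other members were not selected at GV and have no GV values here.

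RNA came from mouse oocytes of C57BL/6 females at postnatal day 35, collected 15 to a tube. The conditional knockout (CKO) carried floxed Lsm14b alleles (Lsm14bfl/fl) and the Gdf9-Cre transgene, and the control (WT) carried the floxed alleles alone, so both genotypes are floxed. Gdf9-Cre acts in oocytes from early follicle stages, and somatic cells of the ovary keep Lsm14b. The groups were CKO and WT eggs at metaphase II (MII, mature and arrested) and CKO and WT oocytes at the germinal vesicle stage (GV, before maturation), each with 3 libraries, for 12 in all. The labels do not say whether the libraries of a group came from separate animals, so p-values measure only the spread between these libraries, which may be technical. Lsm14b encodes an RNA-binding protein of cytoplasmic ribonucleoprotein granules. Its mean in CKO was 8.22% of the WT mean at MII and 6.26% at GV.

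Sprouty and Spred proteins are induced by growth factor signalling and restrain it, which makes them feedback inhibitors of the RAS to ERK cascade. Sprouty proteins bind adaptors such as Grb2 and the ubiquitin ligase Cbl and block the step from receptor to RAS or RAF. Spred proteins carry an EVH1 domain besides the Sprouty domain they share with the other branch, and Spred1 brings the RAS GTPase-activating protein neurofibromin (Nf1) to the membrane. In the ovary the follicle cells signal to the oocyte through Kit, and the oocyte signals back through growth factors such as Fgf8, while ERK activity in the egg itself is held up by Mos.

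Values are normalized read counts, meaning reads divided by a size factor for each library. Reads behind the MII values came to 23077585 to 40530314 in CKO libraries and 88494525 to 124872889 in WT libraries, so each read weighs more in CKO (1.38 to 2.53 normalized counts) than in WT (0.513 to 0.598). At GV the total depth of the libraries is unknown, because only selected genes are listed. Each read weighed 0.774 to 0.954 normalized counts in CKO there and 0.872 to 1.36 in WT. WT replicate 3 stood apart at MII, where its gene-wide Spearman rho with each of the others was 0.845 to 0.865, and member results that rest on it are given with and without it. All 12 oocyte markers were detected at MII, and their summed level was 790827 to 898818 normalized counts in CKO and 619563 to 738755 in WT. Among them Nobox stood at 144697, 139534 and 121815 in CKO eggs, against 47847, 39370 and 19384 in WT eggs. Zp2, Zp3 and Nlrp5 were also higher in every CKO library than in any WT library, and Bmp15 was lower. Over all tested genes, 10.4% were higher and 12.0% lower in every CKO library. In the limma fit given below, 1 of the 12 markers was called higher and 0 lower. Nobox alone was listed at GV (authors' deposited table, log2 fold change 1.58).

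The 3′ ends of the transcripts are shown first, because stored oocyte mRNAs are regulated through short elements there. In the GENCODE M21 annotation (GRCm38), the last 300 bases of the 3′ UTR of Spry1 held the letters TTTTAT 3 times. This is a form of the cytoplasmic polyadenylation element bound by CPEB proteins. The lines give 30 bases around each of these sites, 5′ to 3′ as DNA letters of the transcript strand, with the element in capitals.
Spry1, chr3:37644329-37644358, plus strand: cttttttgtataTTTTATgtataaatcaca
Spry1, chr3:37644393-37644422, plus strand: tgttaaacttttTTTTATtgtaaagaatat
Spry1, chr3:37644432-37644461, plus strand: gaatctctattaTTTTATgatatttattgc
Spred2, chr11:20023942-20023971, plus strand: agttcttaacttTTTTATggtttctaatat
The window of Spred2 held TTTTAT 2 times, of which the site nearer the end is shown, and that of Spry2 held it 3 times. The windows of Spry4, Spred1 and Spred3 held none. In the whole 3′ UTR, TTTTAT occurred 3 times each in Spry1 and Spry2, 2 in Spry4, 8 in Spred1, 4 in Spred2 and 0 in Spred3. These UTRs differ in length, from 856 bases in Spry2 and 1047 in Spry1 to 4330 in Spred1. Of 16446 genes with a window of this length, 29.2% held TTTTAT at least once on the transcript strand. The Spry1 window was 73.7% A or T, beside a median of 59.7% over all genes.

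The letters of a Pumilio element were searched too. TGTANATA, where N is any base, occurred once in the windows of Spred1 and Spred2 and in none of the windows of Spry1, Spry2, Spry4 and Spred3, while 9.55% of all windows held it. In the whole 3′ UTR it occurred 4 times in Spred1, 3 in Spred2, 2 in Spry4 and 1 in Spry2, and in neither Spry1 nor Spred3. The lines give these sites with the matched letters in capitals.
Spred1, chr2:117182128-117182157, plus strand: tgagtatatcaTGTAAATAcgcacatagga
Spred2, chr11:20023990-20024019, plus strand: ttgctttgaaaTGTAAATAtaaacacgtcc
The poly(A) signal AATAAA was in none of the 6 windows and in 69.9% of all windows, and only Spred1 held the variant ATTAAA, present in 29.8% of all windows. The letters TTTTAAT are another form of the cytoplasmic polyadenylation element and can overlap AATAAA. They were in the window of Spry4 alone among the members and in 11.1% of all windows. In the whole 3′ UTR they occurred 1 time each in Spry4 and Spred2 and 3 times in Spred1. These are matches to an annotated end, and the end used in these oocytes was not measured here.

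Spry1 was the member with far less RNA in CKO. At MII it stood at 478, 281 and 441 normalized counts in CKO replicates 2, 3 and 4, against 4103, 3872 and 3270 in WT replicates 1, 2 and 3. Every CKO library lay below every WT library, and 111 to 347 Spry1 reads remained in each CKO library. The mean was 400 ± 105 in CKO and 3748 ± 430 in WT (SD, n = 3 each), which left 10.7% of the WT mean. The log2 difference from limma on log2(normalized count + 1) was -3.26 (SE 0.35, adjusted p = 0.00796), and that of the authors' deposited table was -3.22 (SE 0.33, adjusted p = 2.47e-19).

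Spry1 was the 1 member that limma called at an adjusted p under 0.05, and the rate over all 20388 genes tested was 1.51%, or 0.520% higher and 0.991% lower in CKO. The authors' deposited table called 11.5% at MII, 6.94% lower. Among all tested genes, 10.4% had every CKO library above the WT range, and 12.0% had every CKO library below it. Nothing is read from the members' count beside these rates. Of the 202 genes that fell, Spry1 ranked 71 by the size of the fall and 9 by p among all genes tested. Without WT replicate 3 the Spry1 difference was -3.35 (SE 0.28, adjusted p = 0.0346). Leaving out any of the other 5 libraries gave -3.40 to -3.02 with limma adjusted p of 0.0636 to 0.157. Those 5 limma fits called 0 genes in all, with 2441 to 3007 genes at an unadjusted p under 0.05 and 6.03e-05 to 4.37e-04 for Spry1 itself, while array weights called 3190 genes and limma-voom 175.

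**Figure D1:**
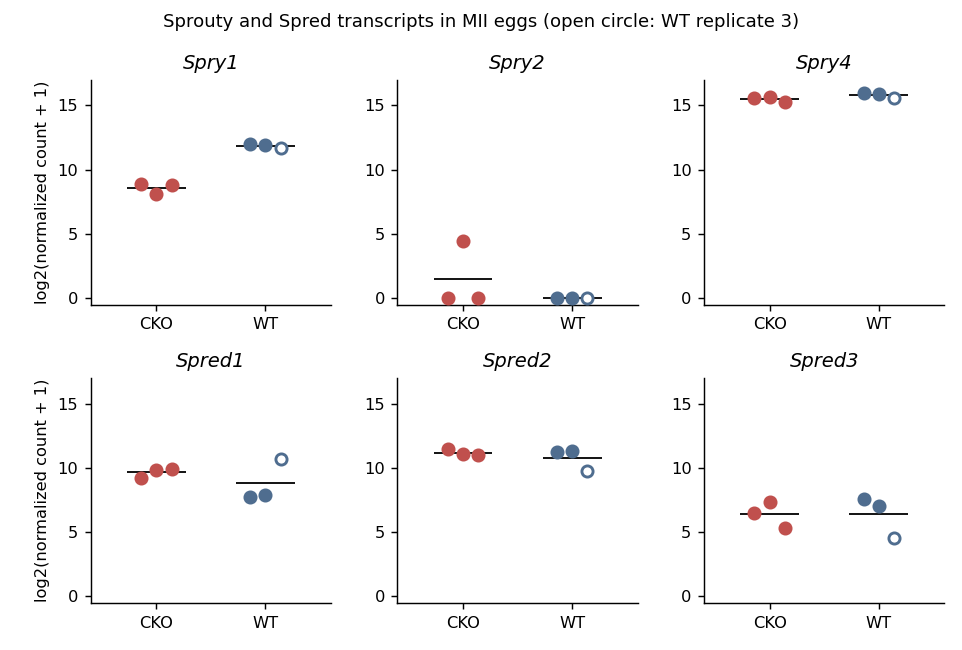
Normalized counts on the log2(normalized count + 1) scale of the 6 measured Sprouty and Spred genes in MII eggs, with 1 point per library, CKO left and WT right, and a line at the mean of 3 libraries. The genotypes are separate for Spry1 and overlap for the other members, and WT replicate 3 (open circle) lies away from the other WT libraries for Spred1, Spred2 and Spred3.

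Spry1 was low in CKO before maturation too. At GV it stood at 862, 646 and 833 normalized counts in CKO replicates 1, 2 and 4, against 7955, 6288 and 8032 in WT replicates 1, 2 and 4. The CKO libraries again lay wholly below the WT libraries. The mean was 780 ± 117 in CKO and 7425 ± 986 in WT (SD, n = 3 each), which left 10.5% of the WT mean. The authors' deposited table gave a log2 fold change of -3.25 (SE 0.19, adjusted p = 2.78e-65). That table called 12.9% of 21462 genes past 2-fold at an adjusted p under 0.05, with 4.96% higher and 7.89% lower in CKO. The number 21462 is not stated there, and was inferred from the adjusted p over the unadjusted p of the top gene. Spry1 was 7th by p and 466th of the 1694 lower genes by the size of the fall, and among the 617 lower genes averaging 1000 normalized counts or more it was 17th.

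The Spry1 difference was close in size at the 2 stages. In the authors' deposited table the log2 fold change at MII minus that at GV was 0.03, with a combined SE of 0.38 and a 95% interval of -0.71 to 0.77. The interval covers differences between the stages in either direction. The tables were scaled separately, so the WT levels of 3748 at MII and 7425 at GV give no change of level with maturation.

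**Figure D2:**
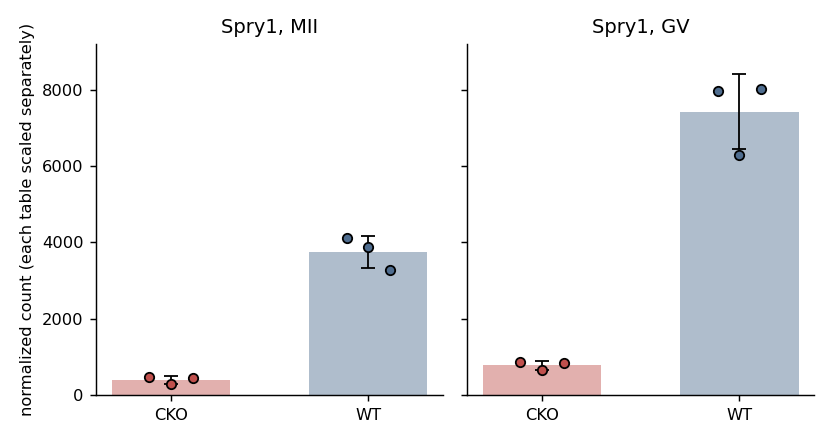
Spry1 normalized counts at MII (left panel) and GV (right panel), with CKO left of WT in each, bars at the mean, error bars of 1 SD (n = 3) and 1 point per library. CKO libraries sit between 281 and 478 at MII and between 646 and 862 at GV, below all WT libraries of the same stage.

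The gene model Gm42922 overlaps Spry1 exons on the opposite strand in GENCODE M21, and it was listed at GV with 0 reads in every CKO library and 70.6, 77.8 and 26.1 normalized counts in WT replicates 1, 2 and 4. The strand setting of the counting is not given in the sources used here, so reads of Spry1 and of this antisense model cannot be told apart with certainty. The model's WT values are far below those of Spry1. No other member's exons overlapped another gene.

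Spry4, the other Sprouty gene with high RNA in eggs, did not pass the test. It stood at 49866, 52352 and 40095 normalized counts in CKO replicates 2, 3 and 4, against 65155, 60616 and 48140 in WT replicates 1, 2 and 3. The ranges overlap, through WT replicate 3. The limma log2 difference was -0.29 (SE 0.29, adjusted p = 0.630), and without WT replicate 3 it was -0.42 (SE 0.19, adjusted p = 0.325). The log2 ratio of Spry1 to Spry4 within a library was -6.70, -7.54 and -6.50 in CKO replicates 2, 3 and 4, against -3.99, -3.97 and -3.88 in WT replicates 1, 2 and 3. That ratio, which any scaling of a library leaves almost unchanged, did not overlap between the genotypes. It restates the Spry1 difference of a family selected on such differences, so it adds no separate support.

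Spry2, an inhibitor best known from lung and limb development, was close to absent. It had 8 reads in CKO replicate 3 (20.3 normalized counts) and none in the other 5 libraries. Its limma log2 difference of 1.47 (SE 1.36, adjusted p = 0.627) rests on that library alone. A count of 0 allows up to 3 reads, which is a mean of 5.29 normalized counts over CKO libraries and 1.70 over WT libraries, for counting error only.

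Spred1, the member tied to neurofibromin, gave different answers with and without WT replicate 3. It stood at 598, 939 and 963 normalized counts in CKO replicates 2, 3 and 4, against 216, 243 and 1684 in WT replicates 1, 2 and 3. The CKO libraries lay above WT replicates 1 and 2 and below WT replicate 3. Over all 6 libraries limma gave a log2 difference of 0.87 (SE 0.73, adjusted p = 0.616). Without WT replicate 3 it was 1.82 (SE 0.29, adjusted p = 0.0508), a 3.63-fold higher mean in CKO. The adjusted p was 0.0350 when the filter on low values was reapplied to the remaining 5 libraries, a setting chosen after seeing the data. With array weights, which gave that library a weight of 0.198, the limma difference was 1.65 (SE 0.39, adjusted p = 0.0171). The same weights were 4.372 for WT replicate 2, 0.984 for WT replicate 1 and 0.902 to 1.184 for CKO libraries. The WT side of every array-weight result therefore rests mostly on WT replicate 2. Over all tested genes, the fit with the reapplied filter called 4.88% (2.16% higher and 2.72% lower in CKO), and array weights called 15.6% (6.36% higher and 9.28% lower). Nothing is read from these member calls either.

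Spred2 also turned on that library, and Spred3 had no settled direction. Spred2 stood at 2842, 2193 and 2098 normalized counts in CKO replicates 2, 3 and 4, against 2454, 2552 and 852 in WT replicates 1, 2 and 3. Its limma log2 difference was 0.43 (SE 0.44, adjusted p = 0.631) over all libraries and -0.09 (SE 0.18, adjusted p = 0.802) without WT replicate 3. Spred3, which lacks the working Kit-binding domain of the other Spreds, stood at 90.9, 165 and 39.9 normalized counts in CKO replicates 2, 3 and 4, against 187, 131 and 22.6 in WT replicates 1, 2 and 3. It had 29 to 66 reads in CKO libraries, and its limma log2 difference was 0.03 (SE 1.01, adjusted p = 0.992). Without WT replicate 3 the Spred3 difference was -0.88 (SE 0.73, limma adjusted p = 0.521). It was also negative without CKO replicate 2 (-0.02) or CKO replicate 3 (-0.45), and 0.61 without WT replicate 1.

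**Figure D3:**
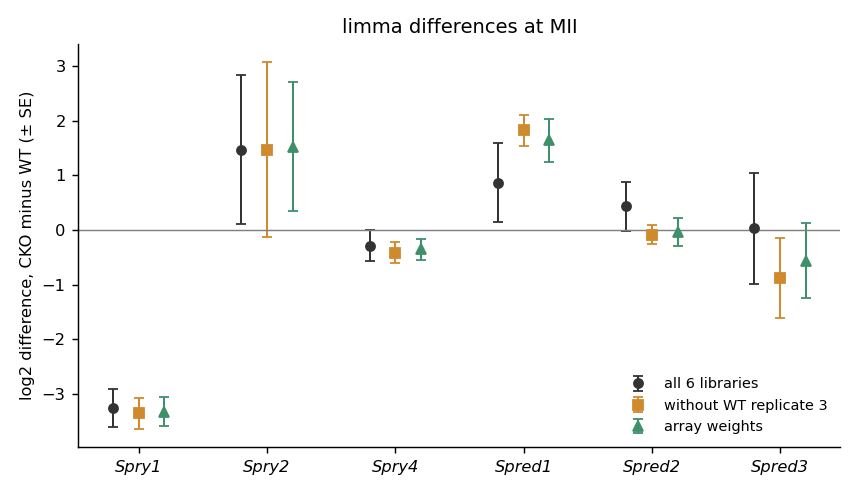
The limma log2 difference, CKO minus WT, of each measured member at MII, with error bars of 1 SE, from all 6 libraries (circles), without WT replicate 3 (squares) and with array weights (triangles). Spry1 lies between -3.35 and -3.26 in the 3 fits, Spred1 moves between 0.87 and 1.82, and Spred2 and Spred3 change sign.

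Per kilobase of exon, the family's RNA at MII was mostly Spry4. Its level was 9976 ± 1363 normalized counts per kilobase in CKO and 12191 ± 1853 in WT (SD, n = 3 each). In CKO the order was Spry4, Spred2 (534 ± 91.0), Spry1 (138 ± 36.0), Spred1 (123 ± 30.1), Spred3 (24.3 ± 15.4) and Spry2 (SD, n = 3 each). In WT it was Spry4, Spry1 (1290 ± 148), Spred2 (439 ± 215), Spred1 (105 ± 124), Spred3 (28.0 ± 20.6) and Spry2 at 0 (SD, n = 3 each). Neighbours whose libraries overlapped were Spry1 with Spred1 in CKO, and Spred2 with Spred1 and Spred1 with Spred3 in WT. Spry1 made up 0.820% to 1.65% of the family's summed level per kilobase in CKO libraries and 8.97% to 9.62% in WT libraries, and Spry4 91.6% to 93.4% in CKO and 86.6% to 87.0% in WT.

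Across the 6 MII libraries the genes whose log2 levels ran closest to Spry1 were Cmya5 (Pearson r = 0.9984), Pdcd2l (0.9976) and Tex26 (0.9942), of 10377 named genes averaging 50 normalized counts or more. Cmya5 stood at 3452, 2134 and 3025 normalized counts in CKO replicates 2, 3 and 4, against 12516, 12273 and 11016 in WT replicates 1, 2 and 3. The genes closest to Spry4 were Ppm1l (0.9939), Cdc14b (0.9933) and Cars (0.9909), and those closest to Spred1 were Rnf138 (0.9909), Pwwp3a (0.9891) and Prpf38a (0.9858). Spred2 ran closest to Alkbh3, Naprt and Bmp6 (0.9949 to 0.9980), and Spred3 to Fto, Polr1b and Erfe (0.9940 to 0.9951). With 6 points that share genotype, depth and WT replicate 3, these values only describe likeness. Among the members themselves r ran from -0.80 for Spry4 with Spred1 to 0.78 for Spred2 with Spred3.

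The pathway that the family acts on was followed with 6 lists holding 159 genes, of which 127 were tested at MII. Limma called 1 of the 127 higher and 2 lower at MII, beside 0.520% and 0.991% of all genes (1.51% in all). At GV the authors' deposited table called 4 of the 159 higher and 25 lower, beside 4.96% and 7.89% of all genes (12.9% in all). How many of the 159 were tested at GV is unknown. Across all genes tested at MII the median log2 difference was -0.11 and 53.5% of differences were negative.

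Ligands and receptors were lower where they were called, with 1 exception, and calls over all genes leaned lower too. At MII limma called 0.520% of all genes higher and 0.991% lower, and array weights 6.36% and 9.28%. The authors' deposited table called 11.5% at MII, 6.94% lower, and at GV 4.96% higher and 7.89% lower. Nothing is read from the direction of these calls. Limma called 0 of 12 FGF ligands at MII (median log2 difference -0.92, 2 at an unadjusted p under 0.05), where array weights called 3 lower and the authors' deposited table called 1 lower. At GV that table called 4 of the 22 listed lower. Fgf8, a ligand that oocytes send to cumulus cells, stood at 1348, 2821 and 2431 normalized counts in CKO replicates 1, 2 and 4, against 5729, 9122 and 6157 in WT replicates 1, 2 and 4 (authors' deposited table, log2 fold change -1.67, adjusted p = 2.88e-07). Fgf6 was at 0 in every CKO library and at 45.3, 40.9 and 155 in WT. Of 28 receptor tyrosine kinases tested at MII, limma called 1 lower (median -0.58), array weights 6 and the authors' deposited table called 4. At GV that table called 1 of the 40 listed higher and 6 lower. Flt1, a VEGF receptor, stood at 20.7, 7.60 and 5.51 normalized counts in CKO eggs, against 368, 449 and 877 in WT eggs (limma log2 difference -5.63, SE 0.87, adjusted p = 0.0203). Erbb4, a neuregulin receptor, was the receptor called higher at GV, at 3453, 2022 and 1394 in CKO and 671, 761 and 843 in WT (authors' deposited table, adjusted p = 2.92e-05). Flt1, Kdr, Tie1, Ror2 and Pdgfra were among the receptors called lower there, and Kdr was at 0 in every CKO library.

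Among adaptors, Gab1, which couples receptors to the phosphatase Ptpn11, was lower at both stages. It had 0 reads in every CKO library at MII, against 114, 68.8 and 193 normalized counts in WT replicates 1, 2 and 3, which is at least 23.7-fold lower with the floor of 3 reads per library (limma adjusted p = 0.0307). At GV it stood at 14.5, 0 and 19.1 in CKO and 534, 119 and 317 in WT (authors' deposited table, adjusted p = 4.29e-05). Sos2, a RAS exchange factor, and Siah2, a ubiquitin ligase that binds Sprouty proteins, were called lower at GV, with log2 fold changes of -1.39 and -1.01 in the authors' deposited table. At MII limma left the other 24 of 25 adaptors and binding partners uncalled (median 0.21), while array weights called 3 of the list higher and 5 lower, and calls in the authors' deposited table were 1 higher and 4 lower. Sos2 stood there at 180, 281 and 201 normalized counts in CKO eggs, against 677, 601 and 609 in WT eggs, with an adjusted p of 0.121 from limma and 6.04e-04 in the authors' deposited table.

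Of 21 genes of the core cascade limma called 0 at MII (median 0.06, 5 at an unadjusted p under 0.05), array weights called 2 higher and 2 lower, and the authors' deposited table called 2 lower at each stage. At GV Rps6ka2, an ERK-activated kinase gene, was among them, at 161, 29.4 and 72.5 normalized counts in CKO oocytes and 417, 145 and 373 in WT (authors' deposited table, adjusted p = 0.0447).

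Other negative regulators went both ways. Of 24 tested at MII (median -0.09), Dusp16, a phosphatase acting on MAP kinases, rose and none fell in the limma fit, while array weights called 8 higher and 3 lower and calls in the authors' deposited table were 5 higher and 1 lower. Dusp16 stood at 9225, 9960 and 7697 normalized counts in CKO eggs, against 3831, 2803 and 1804 in WT eggs (limma log2 difference 1.73, SE 0.33, adjusted p = 0.0372). At GV 2 of the 27 listed were called higher and 3 lower. Dab2ip, a RAS GTPase-activating gene, was among those called higher (authors' deposited table, log2 fold change 1.39). Rasal1 and Rasa3, which belong to the same class of RAS inhibitors, and the phosphatase gene Ptpn3 were called lower, at -1.81, -1.62 and -1.53.

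Transcripts that respond to ERK in other cells were called only in part. Limma called 0 of 17 at MII (6 at an unadjusted p under 0.05), array weights 6 lower and the authors' deposited table called 2 lower. In the limma fit 14 differences were negative and the median was -2.19, or -1.26 with the 5 genes at 0 in a genotype set at the floor. Many of these genes were low and CKO libraries were shallower, and the part of depth in this was not tested. At GV 7 of the 22 listed were called lower and 1 higher. Etv5, an ETS transcription factor gene, stood at 166, 114 and 242 normalized counts in CKO oocytes, against 891, 1089 and 1499 in WT (authors' deposited table, log2 fold change -2.74, adjusted p = 1.41e-11). Fos, Hbegf, Phlda2 and Epha2 were also among the genes called lower, and Myc was called higher, at 5.12, 62.0 and 168 in CKO and 0 in every WT library. Without WT replicate 3, limma called 2 of the 127 genes higher and 9 lower at MII, beside 4.37% of all genes (1.30% higher and 3.06% lower).

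**Figure D4:**
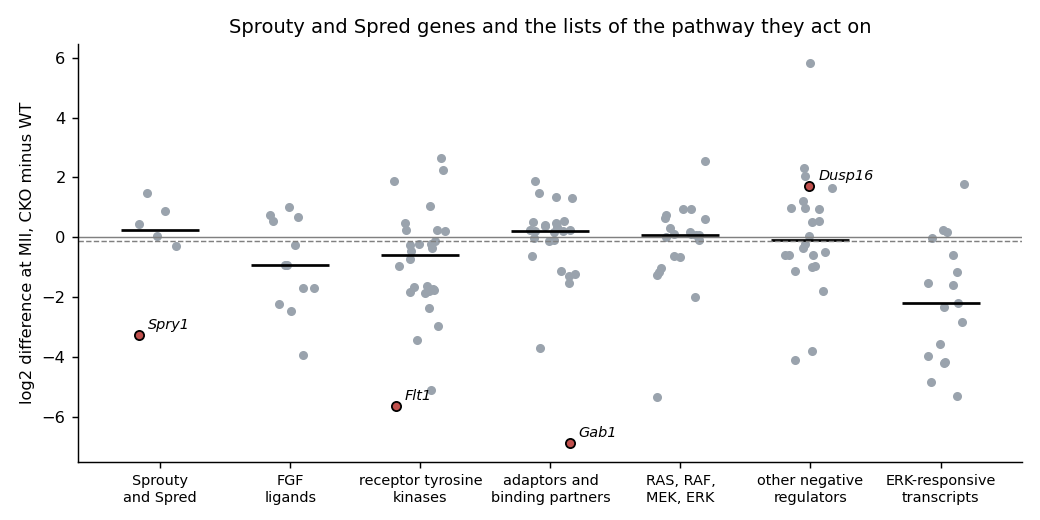
The limma log2 difference at MII, CKO minus WT, of each tested gene of the family and of the 6 pathway lists, with a short line at each list's median, a dashed line at the median of all genes and filled red points for genes with an adjusted p under 0.05. Spry1, Flt1 and Gab1 are the called genes below 0 and Dusp16 the called gene above it.

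Markers of other ovarian cells were read beside these results, since Spry1 and several receptors are also used by vessels and stroma. At MII the summed level of the 16 cumulus and granulosa markers present, of 25 listed, was 3448 to 4395 normalized counts in CKO and 2933 to 5243 in WT. Of those 16, 4 (Amh, Hsd17b1, Has2 and Cd44) were at 0 in every CKO library and 3 (Cyp11a1, Fst and Lhcgr) in every WT library. Fshr stood at 157, 96.2 and 90.9 in CKO eggs, against 34.2, 4.79 and 0 in WT eggs. Nr5a2, Inhba and Ptgs2 were also higher in every CKO library than in any WT library, as were 10.4% of all tested genes. Inhba was low, at 10.1 normalized counts in CKO replicate 3, and nothing is read from these markers. No marker of this list was lower in every CKO library. Limma called 0 of them higher and 0 lower. The 7 theca, stroma and endothelium markers present, of 13 listed, summed to 3948 to 4655 in CKO and 3760 to 4776 in WT. Most of that sum was Pecam1 (mean 3715). Pecam1 stood at 4198, 3998 and 3771 in CKO eggs, against 3422, 4060 and 2841 in WT eggs, with overlap. The libraries of the genotypes also overlapped for Dcn, Pdgfra and Cyp17a1. Within the list Tie1 stood at 297, 160 and 158 in CKO eggs, against 703, 446 and 695 in WT eggs, with no overlap. Kdr stood at 64.7, 0 and 0 in CKO and 114, 178 and 124 in WT, and Vwf was at 0 in every CKO library and at 18.3, 61.0 and 0 in WT. The 5 blood and immune markers present, of 12 listed, summed to 194 to 255 in CKO and 1118 to 1973 in WT, and in WT most of this was the complement gene C1qb. C1qb stood at 113, 195 and 134 in CKO eggs, against 1904, 1493 and 1049 in WT eggs. For Ptprc, Cd68, Cd3e and Csf1r the genotypes overlapped. Limma called 0 of the list higher and 1 lower. At GV 4 of the 13 theca, stroma and endothelium markers were listed, all lower in CKO, and summed to 127 to 372 in CKO and 963 to 2032 in WT. Only genes selected for a difference are listed at GV, so a gap in such a sum follows from that selection. The rest of these markers, Pecam1 among them, have no GV values. Of the 2 blood and immune markers listed there, C1qb stood at 846, 846 and 728 in CKO and 1722, 2061 and 1823 in WT. Cd68 went the other way, at 282, 180 and 347 in CKO and 104, 101 and 79.5 in WT. No cumulus marker was listed at GV. Kdr, Tie1 and Pdgfra are markers on that endothelial and stromal list as well as receptors named above. The part of these cells in the Spry1 difference was not tested. In pools of oocytes, fewer cells of a type and less RNA per cell cannot be told apart.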

How the data were processed

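Per the labels' protocols, libraries were made by standard Illumina methods from total RNA of lysed oocytes. For aligner, genome build, annotation, counting tool and strandedness, nothing is stated in the labels. Values per library were deposited on the scale log10(normalized count + 1). Beside them the authors deposited the average of the 6 libraries as a signal, their log2 fold change and SE, and a score from their test. They deposited its p-value too, raw and adjusted. Whole reads were recovered from the deposited values (100% within 0.05 of a whole number).

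For MII eggs, log2(normalized count + 1) was modelled on genotype by limma-trend (limma 3.58.1, R 4.3.3) for 20388 genes with a mean of at least 1, with Benjamini-Hochberg adjustment over all of them and a threshold of 0.05. At GV the authors' deposited statistics were used, and the number of genes tested was inferred from their adjusted p. Exon lengths, 3′ UTRs and site coordinates are from GENCODE M21 (GRCm38). The table of the files gives no build, so these serve only lengths, overlaps and letters. The genes named were Lsm14b, all members, every listed gene called at a stage or the 6 with the smallest p (some are not reported here), and for each member averaging 50 or more the 3 genes of highest correlation. Genes outside this rule that the text names were named after their values were seen. The members and lists were chosen with earlier results of these data known. Floors cover counting error only, and the interval of the stage difference is built from the authors' SEs.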

Additional observations from a re-analysis of the deposited data

How the results depend on the processing

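The Spry1 difference at MII was negative in all 14 alternatives (log2 -3.40 to -3.02), and its adjusted p was under 0.05 in 8 of them. With replicate number as a replicate block, where only numbers 2 and 3 are shared at MII, limma called 0 genes (1496 at an unadjusted p under 0.05), and Spry1 had -3.28 (adjusted p = 0.587). That block leaves 1 residual degree of freedom, and same-numbered libraries shared only a number (correlations of deviations 0.066 and -0.24 at MII, and -0.0022 to 0.075 at GV). Leaving out 1 library gave -3.40 to -3.02 (adjusted p 0.0346 to 0.157), 0 to 1 members called and 0 to 11 pathway genes called. Array weights gave 2 members and 38 pathway genes, limma-voom on recovered reads 1 and 1 (175 of all genes), the replicate block 0 and 0, and the filter reapplied without WT replicate 3 gave 2 and 15, against 1 and 3 in the reported fit. All genes called ranged from 0, in each fit that left out a library other than WT replicate 3, to 3190 with array weights. Reversed differences were those of Spred2 with array weights (-0.03) and without WT replicate 3 (-0.09 with either filter), and of Spred3 with array weights (-0.56), limma-voom (-0.03), and without CKO replicate 2 (-0.02), CKO replicate 3 (-0.45) or WT replicate 3 (-0.88 with either filter). No cause of these reversals was tested. Leaving out 1 library, Spred2 ranged from -0.09 to 0.70 and Spred3 from -0.88 to 0.61. Spry2 gave no value without CKO replicate 3, where all libraries were at 0, or with a minimum mean of 10. At GV the Spry1 log2 ratio was -3.25, and -3.36 to -3.13 with 1 library left out. Taken within replicate numbers (replicate block) it was also -3.25. An adjusted p under 0.01 kept 24 of the 29 pathway calls.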
